A study of Rattus norvegicus with 9 samples.

Results

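The genes described here encode receptors for small ligands, nearly all of them G protein-coupled receptors, in cultured rat cardiac fibroblasts of 3 ages. They were chosen by symbol: the adrenergic, muscarinic, serotonin, adenosine, P2Y, sphingosine 1-phosphate, lysophosphatidic acid and protease-activated receptor names, Mrgprf, the adhesion receptors (Adgr) and the genes named Gpr with a number. The rule found 132 of the 17337 genes in the count table: 9 adrenergic, 5 muscarinic, 14 serotonin, 4 adenosine, 8 P2Y, 5 sphingosine 1-phosphate (S1P), 5 lysophosphatidic acid (LPA), 4 protease-activated, 14 adhesion and 63 Gpr genes, and Mrgprf. It takes names, not function, so Htr3a and Htr3b, subunits of an ion channel gated by serotonin, are among them.

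The RNA came from Sprague Dawley rat hearts at embryonic day 18 (fetal), postnatal day 1 (neonatal) and 7 weeks (adult), with 3 libraries for each age. The labels name no genetic change and no drug for any group. At all 3 ages the primary cells were grown, without passage, to confluency in T75 flasks of DMEM with 10% serum, antibiotics and 0.1 mM ascorbic acid. The labels state no sorting of the cells, and they do not say whether the libraries of an age came from separate cultures or animals, so the p-values below measure only the spread between these libraries, which may be technical.

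Fibroblast markers, among them Col1a1, Pdgfra and Tcf21, were present at every age. The summed level of 11 marker genes, in counts per 1000000 assigned counts (CPM), was 27599 to 54144 across fetal libraries. It was 72138 to 78390 across neonatal and 27042 to 35606 across adult libraries. Col1a2, 1 of the 11, was close to absent, at 0.0531 to 0.976 CPM over all 9 libraries, where Col1a1 was at 11890 to 40025. The reason was not tested. Markers of other cells differed between ages as well. The summed level of 14 macrophage markers was 15.4 to 80.1 CPM for the fetal, 178 to 196 for the neonatal and 4910 to 6855 for the adult cultures. That of 12 cardiomyocyte markers was 10013 to 14122, 6479 to 7157 and 304.8 to 319.6. Nearly all of the adult cardiomyocyte sum was Tnnt2, at 303 to 316 CPM, and every other marker of that list was at or below 0.899 CPM in the adult libraries. Fetal replicate 3 stood apart from the other fetal libraries, with 242 CPM of lung epithelial markers against 3.62 and 4.41. It held 80.1 CPM of macrophage markers against 16.6 and 15.4, and a fibroblast marker sum of 27599 CPM against 54144 and 51022. Most of that sum was Col1a1 and Col3a1. Pdgfra (151 CPM against 106 and 109), Postn (1104 against 891 and 927) and Vim (3945 against 3707 and 3364) were higher in that library. The other fibroblast markers were lower there. In bulk RNA of this kind, fewer cells of a type and less RNA per cell cannot be told apart.

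G protein-coupled receptors span the membrane 7 times, bind a ligand outside the cell and switch on a heterotrimeric G protein inside it. Those that couple to Gs raise cyclic AMP, those that couple to Gi lower it, those that couple to Gq release calcium through phospholipase C, and those that couple to G12 and G13 act on the actin cytoskeleton. In cardiac fibroblasts, thrombin, catecholamines, adenosine, extracellular nucleotides and lysophospholipids are known to act through such receptors on proliferation, contraction and matrix production.

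Receptor transcripts were scarce in these cultures: the 132 genes held 20840 to 39979 counts a library, between 0.151% and 0.183% of all assigned counts. At least 1 CPM on average was found for 54 genes in fetal, 50 in neonatal and 52 in adult cultures, and 30 genes reached 10 CPM at 1 age or more. 75 genes had enough counts to be tested. The other 57 were too low, 16 of them without a count in any library (among them Adgrg7, Adora3, Chrm1, Gpr1, Gpr101, Gpr119, Gpr139, Gpr15, Gpr26, Gpr33, Gpr35, Gpr61, Htr1a, Htr3b and Htr5a) and 41 with at most 35 counts in any library. No count in a library allows a level of up to 0.131 to 0.224 CPM, depending on its depth and for counting error only. This bound does not hold for Adora3, whose exons overlap those of LOC100911796 on the same strand. Reads from the shared bases were assigned to neither gene. Serotonin receptors were the least represented of the larger families, with 5 of 14 tested, while all 5 LPA and all 4 protease-activated receptors were tested.

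Transcript levels were compared between genes as CPM per kilobase of exon. F2r, the thrombin receptor PAR1, was the most abundant member at each age, at 135 ± 40.5 CPM per kb in fetal, 132 ± 2.34 in neonatal and 83.0 ± 12 in adult cultures (mean ± SD, n = 3 libraries), and it alone took 27.7% ± 5.02, 27.6% ± 0.233 and 16.7% ± 0.612 of all receptor counts. In fetal cultures S1pr3, a Gq- and G12-coupled receptor for S1P, came next at 52.0 ± 8.82 CPM per kb, followed by Adgrl2 at 29.6 ± 0.626 and Gpr107, a Golgi membrane protein, at 27.6 ± 3.85, and the ranges of the last pair overlapped. In neonatal cultures the orphan receptor Gpr176 reached 37.3 ± 1.15, S1pr2 36.8 ± 1.31 and S1pr3 31.5 ± 0.839, of which the first pair overlapped. In adult cultures Gpr176 (41.7 ± 7.34), S1pr2 (39.9 ± 5.42), the nucleotide receptor P2ry2 (37.1 ± 2.12) and Gpr108, another Golgi membrane protein, (36.2 ± 3.23) followed F2r, with ranges that overlapped among these 4. The 5 members with the most counts, taken at each age, made up 61.5% ± 4.07 of the fetal, 59.3% ± 0.423 of the neonatal and 44.8% ± 0.760 of the adult receptor counts. The adult 5 held S1pr2 in place of Adgrl2, so the shares are not of the same genes.

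**Figure D1:**
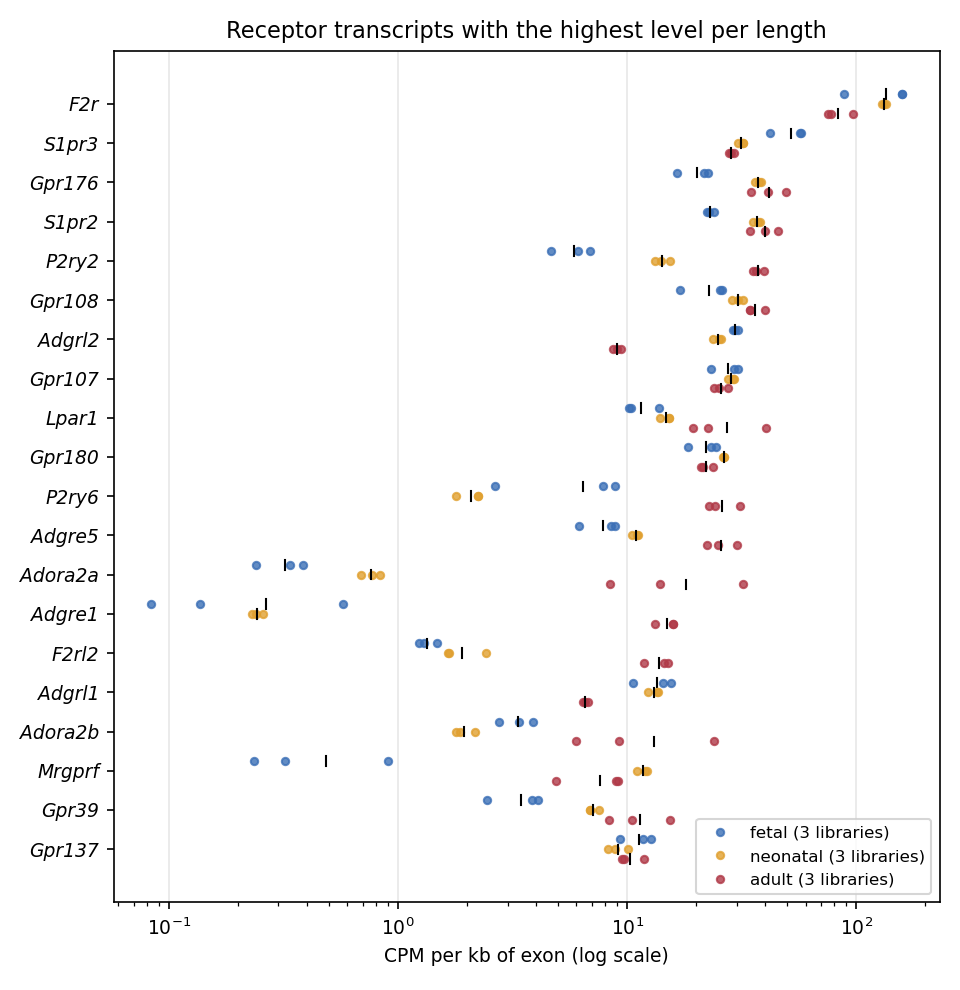
Level of the 20 receptor genes with the highest mean at any age, in CPM per kilobase of exon on a log scale. Each point is 1 library (3 per age) and the black tick is the age's mean. F2r lies to the right of every other gene at all ages, while P2ry2, P2ry6, Adora2a, Adgre1 and F2rl2 have adult points to the right of their fetal and neonatal ones.

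Age moved these receptors about as often as other genes. In the test of any difference among the 3 ages, 62 of the 75 passed (82.7%), where 77.6% of all 11337 genes tested did. Between adult and fetal cultures 26 rose and 30 fell in the adult (34.7% and 40% of 75), against a background of 34.9% and 35.5%. Between adult and neonatal cultures 27 were higher and 22 lower in the adult (36% and 29.3%), against 31.6% and 31.8%. Between neonatal and fetal cultures 9 were higher and 17 lower in the neonatal (12% and 22.7%), against 18.3% and 18%. The median log2 difference of the 75 was 0.04 for neonatal minus fetal, 0.0024 for adult minus fetal and -0.16 for adult minus neonatal, beside -0.0053, -0.013 and -0.0065 over all genes, and none of these medians changed when members without a count at 1 age were set to their bounds. Each pair of ages shares libraries with the other pairs, so the 3 counts are not independent. Library size without further scaling moved the neonatal share of higher calls from 34.6% to 24.1% of the members called (7 higher and 22 lower), and from 50.4% to 29.0% over all genes.

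Of the 75, 21 members were higher in the adult than in both younger ages and 21 were lower than in both, where 26.5% and 26.7% of all 11337 genes tested were. 5 members rose at each comparison, from fetal to neonatal and from neonatal to adult (Adgre5, Gpr183, Gpr39, Gpr65 and P2ry2), and 6 fell at each (Adgrb2, Adgrl2, Chrm2, F2rl1, Lpar3 and S1pr1), against 8.19% and 7.99% of all genes. Adgre5, Gpr39, Gpr65, Adgrb2, Adgrl2, Chrm2 and Lpar3 lost 1 of these calls under at least 1 alternative. 5 were lower in the neonatal than at both other ages (among them Gpr146, Gpr19 and P2ry6), against 4.01% of all genes. By edgeR's quasi-likelihood test no member was higher there than at both (4.53% of all genes were), nor by DESeq2, although at an unadjusted p under 0.05 Gpr180 and Htr1f (2 members) were. That count became 2 without fetal replicate 3 (Gpr63 and Mrgprf), 1 without fetal replicate 2 (Gpr180) and 1 with only the 2 ages compared in the fit (Mrgprf). The highest mean of the tested members was fetal in 26, neonatal in 17 and adult in 32. The same count was not made over all genes tested, so whether receptors differ from other genes in this was not tested.

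**Figure D2:**
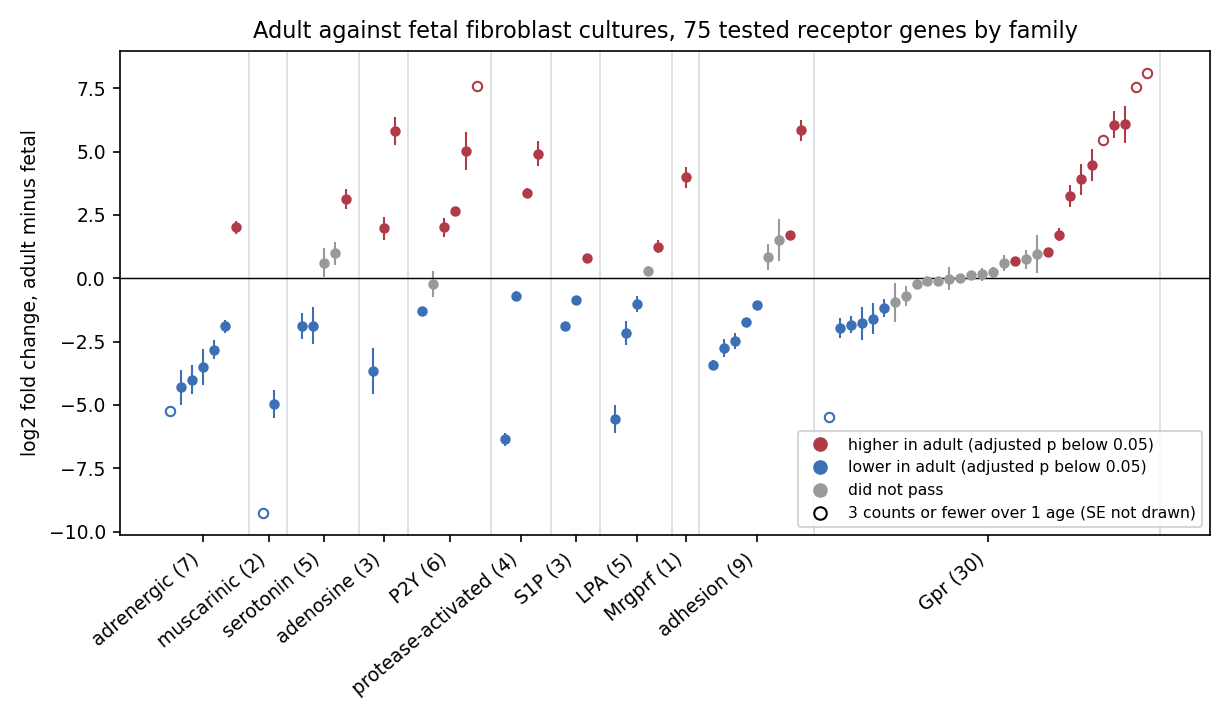
Log2 fold change of adult minus fetal cultures for the 75 tested receptor genes, grouped by family (number tested in brackets) and sorted within it; bars are standard errors, red and blue mark genes higher and lower in the adult at an adjusted p below 0.05. Open circles have 3 counts or fewer over the libraries of 1 age. 6 adrenergic genes lie below 0 and 1 above it, and the protease-activated genes split 2 and 2.

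The promoters of the members that were higher in the adult than at both younger ages (adult-high) held fewer CG dinucleotides at the median than those of the members lower than at both (adult-low), a description of groups formed from these data, with no test. RefSeq's table for build GRCr8 held 1 promoter for 92 of the 132 members and 52 of the 75 tested. In the 250 bases before the annotated start, the dinucleotide CG, which reads the same on both strands, occurred a median of 4 times in 15 of the 21 adult-high members and 11.5 times in 16 of the 21 adult-low members. The other 21 tested members with a promoter had a median of 15. All 33465 promoters had a median of 5 (quartiles 2 and 15), with at least 1 CG in 92.2%. That last set holds every entry, also of untested genes and of genes with more than 1 entry. Such genes were left out of the member groups, so the sets are unlike. At least 10 CG were found in 3 of 15 adult-high members (20%), 8 of 16 adult-low members (50%) and 35.9% of all promoters. The 3 adult-high exceptions were Adgre5 with 22, P2ry2 with 25 and Adora2b with 26. Lpar3, counted with 9 in the adult-low group, has an entry that appears to begin inside the coding region. Windows of 150 bases ending at the base before the start show both kinds, with CG in capitals: Gpr65 and P2ry14 rose in the adult and have few, P2ry2 rose and has many, and P2ry1, Chrm3 and Adrb1 fell and have many. They were picked after their counts were seen and are printed 5′ to 3′ on the gene's strand.
Gpr65 (GRCr8 chr6:123254604-123254753, plus strand): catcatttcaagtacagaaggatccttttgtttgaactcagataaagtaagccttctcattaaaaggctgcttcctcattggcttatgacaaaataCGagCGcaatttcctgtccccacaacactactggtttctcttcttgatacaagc
P2ry14 (GRCr8 chr2:145538511-145538660, minus strand): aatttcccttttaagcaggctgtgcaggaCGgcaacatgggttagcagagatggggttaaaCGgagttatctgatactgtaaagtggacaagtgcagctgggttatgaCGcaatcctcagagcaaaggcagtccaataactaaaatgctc
P2ry2 (GRCr8 chr1:164779489-164779638, minus strand): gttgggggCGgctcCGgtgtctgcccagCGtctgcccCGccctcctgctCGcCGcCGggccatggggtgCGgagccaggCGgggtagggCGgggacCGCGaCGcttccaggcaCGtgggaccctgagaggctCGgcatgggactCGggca
P2ry1 (GRCr8 chr2:147391511-147391660, plus strand): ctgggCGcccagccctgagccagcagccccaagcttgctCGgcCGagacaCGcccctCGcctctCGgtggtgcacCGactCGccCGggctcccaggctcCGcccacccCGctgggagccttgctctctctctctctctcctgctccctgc
Chrm3 (GRCr8 chr17:64696777-64696926, plus strand): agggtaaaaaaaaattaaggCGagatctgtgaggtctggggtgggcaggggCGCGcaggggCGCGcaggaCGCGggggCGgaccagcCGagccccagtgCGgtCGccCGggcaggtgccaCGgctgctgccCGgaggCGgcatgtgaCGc
Adrb1 (GRCr8 chr1:265776953-265777102, plus strand): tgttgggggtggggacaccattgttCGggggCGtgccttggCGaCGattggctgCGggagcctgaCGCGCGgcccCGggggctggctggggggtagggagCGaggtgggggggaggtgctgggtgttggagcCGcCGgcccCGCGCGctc
P2ry14 and P2ry2 belong to the same receptor family and both were higher in the adult, yet the windows hold 3 and 16 CG, so the pattern was not shared by all members that moved in the same direction. These counts describe sequence only, and methylation and factor binding were not measured here.

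**Figure D3:**
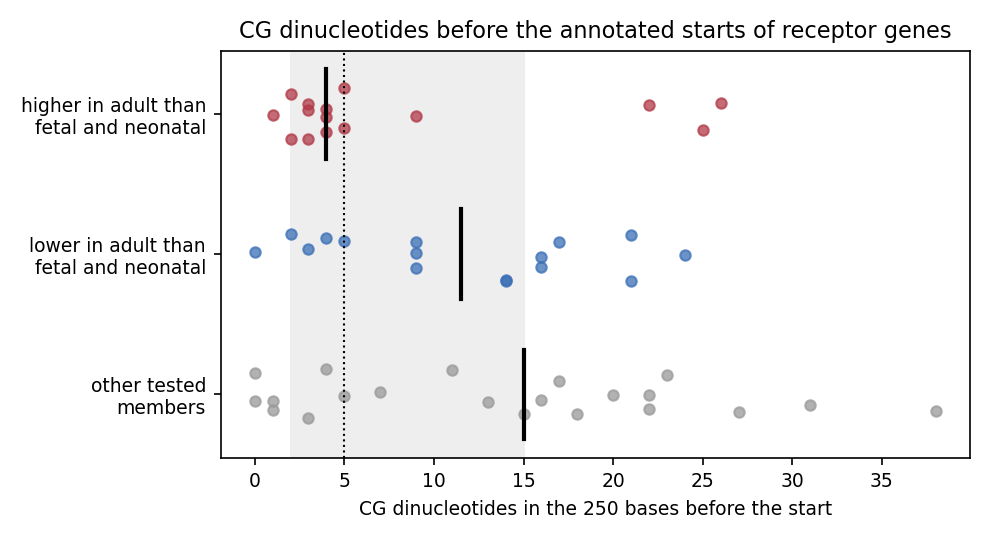
CG dinucleotides in the 250 bases before the annotated start of tested receptor genes (GRCr8), by how the adult cultures differed from both younger ages. Each point is a gene and the black bar the group's median (4, 11.5 and 15); the dotted line and shading give the median (5) and quartiles (2 and 15) of all promoters. 12 of the 15 adult-high genes lie below 10.

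Protease-activated receptors are switched on when a protease cuts their N-terminus. The 4 genes followed opposite courses: F2r and F2rl1 fell towards the adult, and F2rl2 and F2rl3 rose. F2r measured 538, 541 and 299.8 CPM across the fetal, 442, 458 and 451 across the neonatal and 331, 263 and 256 across the adult libraries. Only fetal replicate 3 fell among the adult values, and the log2 difference (± SE) was -0.70 ± 0.21 for adult minus fetal (adjusted p = 0.0135) and -0.67 ± 0.21 for adult minus neonatal (adjusted p = 0.0185). The second call ended without adult replicate 2 (adjusted p = 0.0615) or 3 (0.0625), and without fetal replicate 3 a fall from fetal to neonatal passed as well (adjusted p = 0.0494). F2rl1, the trypsin and tryptase receptor PAR2, measured 31.8, 31.3 and 36.4 CPM in fetal, 1.65, 2.09 and 3.11 in neonatal and 0.306, 0.433 and 0.449 in adult cultures. No libraries of different ages overlapped, and the log2 difference was -3.87 ± 0.20 from fetal to neonatal (adjusted p = 6.48e-06) and -6.36 ± 0.27 from fetal to adult (adjusted p = 7.09e-08), an 82.1-fold lower level in the adult.

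F2rl2 (PAR3), which is cut by thrombin and assists other receptors of the family, took the reverse course. It measured 1.94, 1.85 and 2.23 CPM at the fetal, 2.48, 2.51 and 3.62 at the neonatal and 17.8, 21.7 and 22.7 at the adult age, a rise of 3.37 ± 0.20 from fetal to adult (adjusted p = 5e-07). F2rl3 (PAR4), another thrombin receptor, best known from platelets, was at or below 0.259 CPM in all fetal and neonatal libraries and at 3.21, 4.04 and 6.96 CPM in the adult (adult minus fetal 4.92 ± 0.49, adjusted p = 1.55e-05). F2rl1, F2r and F2rl2 lie close together on chromosome 2 of rn6, at chr2:25222324-25235275, chr2:26118760-26135340 and chr2:26240385-26245533, so genes of 1 neighbourhood moved in opposite directions. The exons of none of the 3 overlap another gene in the annotation.

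**Figure D4:**
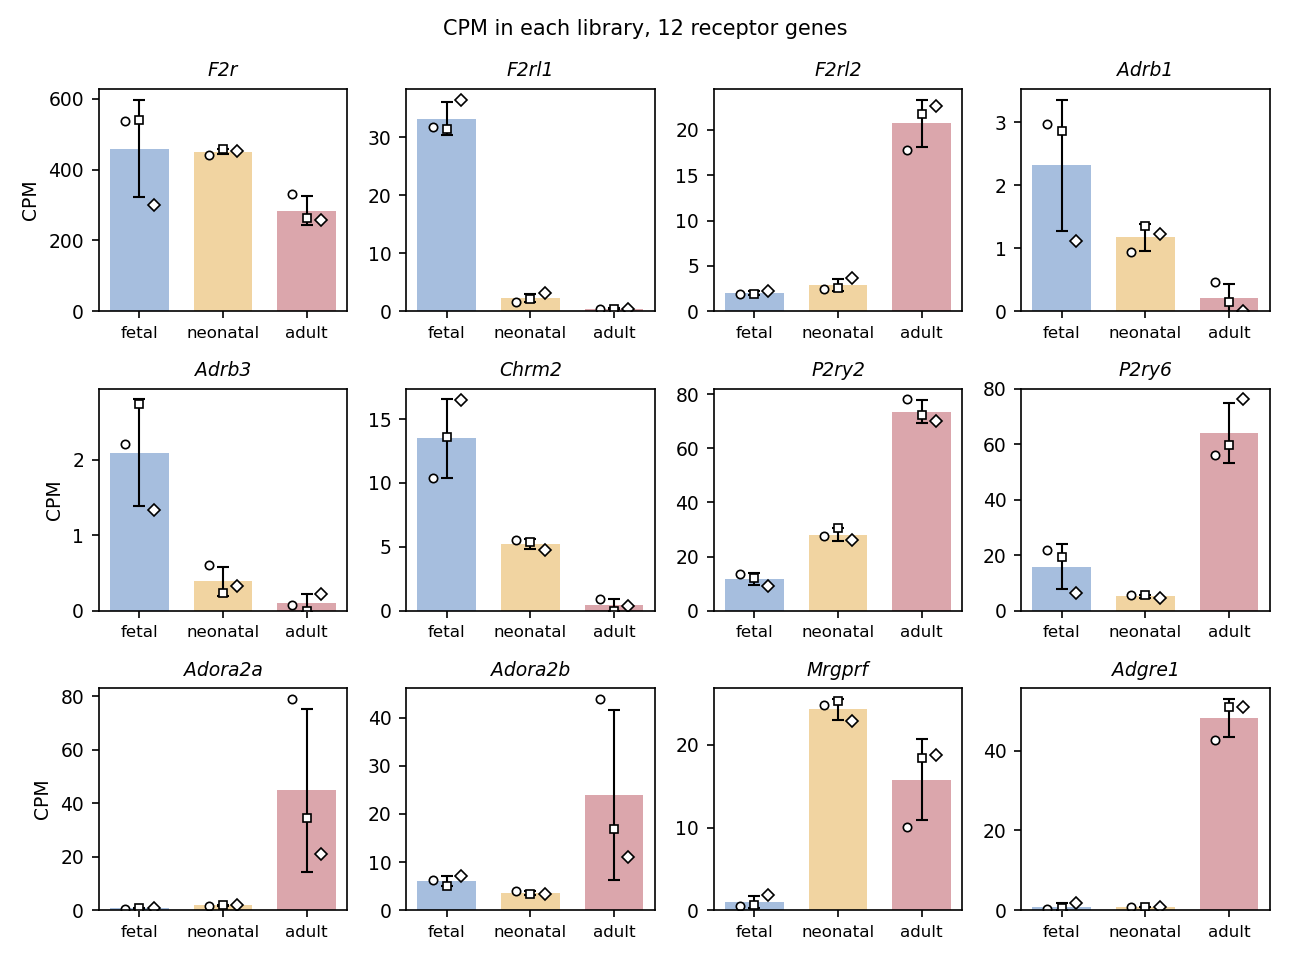
CPM of 12 receptor genes in each library. Bars are means of 3 libraries and error bars SD; the circle, square and diamond are replicates 1, 2 and 3, in each panel on its own axis from 0. F2rl1, Chrm2 and Adrb3 fall from fetal to adult, Mrgprf is low only in the fetal libraries, and adult replicate 1 is the highest adult library for Adora2a and Adora2b.

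Receptors for the lysophospholipids S1P and LPA, which are carried in serum, were divided as well. The 3 tested S1P receptors differed in their course. S1pr3 fell after the fetal age, from 207, 205 and 151 CPM in fetal to 110.03, 115 and 116 in neonatal and 102, 106 and 99.97 in adult libraries (adult minus fetal -0.87 ± 0.11, adjusted p = 8.49e-05). S1pr2, which couples to G12 and G13 and restrains cell migration, rose from 62.1, 61.1 and 65.8 CPM in fetal to 96.8, 104 and 102 in neonatal and 124, 109 and 94.4 in adult libraries (adult minus fetal 0.80 ± 0.09, adjusted p = 5.28e-05). The fetal libraries of both genes stood clear of all others, and between neonatal and adult cultures neither gene passed the test (S1pr3 did without fetal replicate 3, adjusted p = 0.0129, and S1pr2 without adult replicate 3, adjusted p = 0.0435). S1pr1, the Gi-coupled receptor known for its role in endothelium and lymphocyte exit, fell at each comparison, from 17.4, 18.2 and 19.3 CPM to 8.59, 8.69 and 9.13 and then 5.66, 4.77 and 4.49 (adult minus fetal -1.88 ± 0.13, adjusted p = 1.22e-06). The 11 endothelial markers summed to 18.0 to 27.6 CPM in fetal and 100.3 to 120.4 in adult libraries, most of the adult sum being Tie1 (0.353 to 0.486 CPM in fetal and 68.6 to 72.5 in adult libraries). Kdr fell from 2.38 to 2.87 CPM in fetal to 0.650 to 1.38 in adult libraries, Cdh5 was at or below 0.324 and at 2.70 to 5.66 CPM, and Robo4 had no count. Their part in the S1pr1 values was not tested.

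Of the LPA receptors, Lpar1 rose, Lpar2, Lpar3 and Lpar4 fell and Lpar6 did not pass. Lpar1, the most abundant of them and the receptor most studied in fibrosis, measured 33.6, 34.3 and 45.2 CPM across the fetal libraries, 45.7, 50.1 and 50.2 across the neonatal and 133, 73.7 and 63.5 across the adult ones (adult minus fetal 1.25 ± 0.26, adjusted p = 0.00196). All adult libraries were above all others, with adult replicate 1 far above the other pair. Lpar3 measured 10.2, 10.4 and 4.94 CPM in fetal, 2.92, 3.02 and 3.04 in neonatal and 0, 0.217 and 0.3 in adult cultures (adult minus fetal -5.56 ± 0.54, adjusted p = 1.44e-05; -6.17 without adult replicate 3). Lpar4 measured 3.62, 4.94 and 2.71 CPM in fetal, 4.79, 5.95 and 6.54 in neonatal and 2.6, 1.59 and 1.42 in adult libraries. Fetal and neonatal values overlapped and their difference did not pass (0.61, adjusted p = 0.118), and the adult level was lower than the neonatal (-1.62 ± 0.31, adjusted p = 0.00131). Its fall from fetal to adult (-1.01 ± 0.31, adjusted p = 0.0149) ended without fetal replicate 2 (adjusted p = 0.0591) or adult replicate 2 (0.0554) or 3 (0.0550). Lpar2 fell from 1.78, 1.76 and 2.23 CPM in fetal to 0.0765, 0.578 and 0.599 in adult libraries (-2.17 ± 0.47, adjusted p = 0.00242). Lpar6 measured 17.3, 18.7 and 12 CPM at the fetal, 17.9, 17.1 and 19.6 at the neonatal and 16.9, 20.01 and 22.2 at the adult age. Its single exon lies within the span of Rb1 on the opposite strand, apart from that gene's exons.

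The adrenergic receptors, which bind adrenaline and noradrenaline, were 9, of which 7 were tested. From fetal to adult 6 fell and 1 rose, where 35.5% and 34.9% of all genes did. Adrb1, the main beta receptor of cardiomyocytes, measured 2.97, 2.87 and 1.12 CPM, 0.936, 1.35 and 1.23 and 0.459, 0.144 and 0 (adult minus fetal -3.50 ± 0.71, adjusted p = 0.00156; -4.85 without adult replicate 1). Adrb3 fell from 2.21, 2.73 and 1.33 CPM in fetal to 0.605, 0.232 and 0.324 in neonatal and 0.0765, 0 and 0.225 in adult libraries (adult minus fetal -4.30 ± 0.69, adjusted p = 0.000377; -5.57 without adult replicate 3).

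All 3 alpha-1 receptors, which couple to Gq, and Adra2a, which couples to Gi, were lower in the adult than in the fetus. Adra1b measured 6.21, 5.91 and 6.11 CPM in fetal, 1.87, 1.998 and 2.72 in neonatal and 2.3, 1.3 and 1.27 in adult cultures, a fall already present at the neonatal age (-1.47 ± 0.25, adjusted p = 0.00245). Adra1d went from 3.56, 4.54 and 3.08 CPM to 2.37, 2.6 and 2.07 and 0.689, 0.217 and 0.674 (adult minus fetal -2.82 ± 0.37, adjusted p = 9.9e-05). Adra1a held 127 counts over the fetal, 75 over the neonatal and 2 over the adult libraries, a fetal level 42.6 times the adult (95% counting interval 11.6 to 356; adjusted p = 0.000119). Adra2a fell from 1.62, 1.19 and 2.28 CPM in fetal to 0, 0.144 and 0.15 in adult libraries (-4.00 ± 0.59, adjusted p = 0.00022).

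The muscarinic receptors for acetylcholine were close to absent from the adult cultures. Chrm2, the Gi-coupled receptor through which the vagus slows the heart, measured 10.4, 13.6 and 16.5 CPM at the fetal, 5.56, 5.34 and 4.79 at the neonatal and 0.918, 0 and 0.374 at the adult age. The 3 ages did not overlap, and adult minus fetal was -4.97 ± 0.54 (adjusted p = 3.26e-05; -6.14 without adult replicate 1 and -4.37 without adult replicate 2). Chrm3, the Gq-coupled receptor of glands and smooth muscle, measured 3.08, 4.28 and 6.004 CPM in fetal and 3.03, 3.21 and 2.72 in neonatal libraries and had no count in the 3 adult ones. Against a floor of 3 counts over the adult group it was at least 59.7-fold higher in fetal and 40.4-fold higher in neonatal cultures (adjusted p = 1.66e-05 and 4.43e-05). Chrm1, Chrm4 and Chrm5 were not tested, with no count, 26 counts and 1 count over all libraries. The 12 cardiomyocyte markers fell over the same ages, each lower in every adult library than in all others, and the defining genes Myh6 and Myl2 were at 0 to 0.0765 and 0 to 0.0749 CPM in adult libraries. The part of cardiomyocyte RNA in the fetal and neonatal levels of Chrm2, Adrb1 and Adra1a was not tested.

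Adenosine, formed outside cells from ATP, acts through receptors that couple to Gi (Adora1) or to Gs (Adora2a and Adora2b), and the adult cultures had more of the second kind. Adora2a measured 0.594, 0.838 and 0.956 CPM across the fetal libraries, 1.71, 1.91 and 2.07 across the neonatal and 79.1, 34.5 and 20.9 across the adult ones. Adora2b measured 6.21, 5.07 and 7.12 CPM, 3.96, 3.3 and 3.43 and 44, 16.9 and 11. Every adult library was above every other for both genes, and adult replicate 1 was the highest by a wide margin. Adult minus fetal was 5.80 ± 0.55 for Adora2a (adjusted p = 1.82e-05) and 1.97 ± 0.45 for Adora2b (adjusted p = 0.00369). Without adult replicate 1 these came to 5.11 and 1.19, and both calls held (with the highest adjusted p over all alternatives at 0.00118 and 0.0244). Adora1 fell from 0.756, 1.19 and 2.07 CPM in fetal to 0.495, 0.79 and 0.259 in neonatal and 0.306, 0 and 0 in adult libraries (-3.65 ± 0.90, adjusted p = 0.00509); its only adult counts were in replicate 1, and without it the fetal level was at least 12.1-fold the adult, against a floor of 3 counts.

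P2Y receptors bind extracellular nucleotides, and 4 of the 6 tested rose from fetal to adult while P2ry1 fell and P2ry4 did not pass (34.9% of all genes rose and 35.5% fell). P2ry2, the Gq-coupled receptor for ATP and UTP, measured 13.6, 12 and 9.19 CPM in fetal, 27.7, 30.5 and 26.1 in neonatal and 78.1, 72.2 and 70.02 in adult cultures. The ages did not overlap, and the level rose by 1.28 ± 0.13 from fetal to neonatal (adjusted p = 0.00018) and by 1.38 ± 0.13 from neonatal to adult (adjusted p = 1.53e-05), 6.33-fold in all. P2ry6, the UDP receptor, was lowest in neonatal libraries, at 5.5, 5.48 and 4.4 CPM against 21.8, 19.2 and 6.53 in fetal and 56, 59.6 and 76.3 in adult. P2ry6 and P2ry2 are neighbours on chromosome 1 of rn6 (chr1:165972439-165997751 and chr1:166031228-166045420, both on the minus strand), and both were higher in the adult, P2ry6 by 2.01 ± 0.36 over fetal (adjusted p = 0.000942) and 3.63 ± 0.40 over neonatal cultures (adjusted p = 6.6e-05). P2ry1, the Gq-coupled ADP receptor, fell from 13.2, 14.9 and 12.9 CPM in fetal and 11, 12.9 and 13.7 in neonatal to 5.36, 5.56 and 5.69 in adult libraries (adult minus fetal -1.30 ± 0.13, adjusted p = 1.7e-05).

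The Gi-coupled P2ry12, the ADP receptor of platelets and microglia, and P2ry14, which binds UDP-glucose, were near 0 before the adult age. P2ry14 measured 10.03, 7.58 and 5.62 CPM in adult libraries and held 2 counts over the fetal ones, a ratio of 232 (95% counting interval 63.6 to 1922; adjusted p = 7.93e-06). P2ry12 measured 0.108, 0 and 0.213 CPM at the fetal, 0.55, 0.139 and 0.647 at the neonatal and 1.99, 3.68 and 4.94 at the adult age (adult minus fetal 5.03 ± 0.76, adjusted p = 0.000252; 4.40 without fetal replicate 2 and 5.98 without fetal replicate 3). They lie near each other on chromosome 2 of rn6 (P2ry14 at chr2:149331949-149333597 and P2ry12 at chr2:149441601-149444548).

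Of the serotonin receptors, Htr2b was the only one that was higher in the adult than at both other ages. The Gq-coupled Htr2b, known from drug-induced fibrosis of heart valves, measured 1.24, 1.5 and 0.425 CPM across the fetal libraries, 1.54, 1.77 and 2.33 across the neonatal and 11.2, 9.75 and 7.26 across the adult ones (adult minus fetal 3.13 ± 0.38, adjusted p = 6.41e-05). The 3 adult libraries stood above all others, and Psmd1, in whose span Htr2b lies on the opposite strand, measured 267 to 281 CPM in adult and 298 to 333 in fetal libraries. Htr2a, its close relative, fell from 7.56, 7.32 and 13 CPM in fetal to 3.41, 3.3 and 3.43 in neonatal and 4.9, 0.795 and 1.8 in adult libraries (adult minus fetal -1.90 ± 0.51, adjusted p = 0.00828; -2.84 without adult replicate 1). Htr1b was higher in adult libraries (1.3, 1.88 and 1.2 CPM) than in neonatal ones (0.33, 0.279 and 0.259; 2.30 ± 0.52, adjusted p = 0.00366), and it passed against the fetal ones (0.324, 0.617 and 1.28 CPM) only without fetal replicate 3 (adjusted p = 0.00415). Htr3a, the channel subunit, held 54 counts over the fetal, 1 over the neonatal and none over the adult libraries and was not tested.

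Mrgprf, an orphan relative of the itch and pain receptors, was scarce only in fetal cultures. It measured 0.486, 0.661 and 1.86 CPM in fetal, 24.8, 25.3 and 22.9 in neonatal and 10.1, 18.4 and 18.8 in adult cultures. No fetal library reached any other, with differences of 4.61 ± 0.41 to neonatal (adjusted p = 9.1e-05) and 3.99 ± 0.41 to adult (adjusted p = 2.43e-05), which came to 5.37 and 4.74 without fetal replicate 3. The 9 mural cell markers, which include Pdgfrb and Myh11, summed to 1455 to 2907 CPM across fetal, 4527 to 4658 across neonatal and 1565 to 1923 across adult libraries. Most of the adult sum was Pdgfrb, at 1271 to 1332 CPM. In every adult library 4 of the 9, among them Mcam, Cspg4 and Des, were below all younger libraries, and 0 were above all of them. The part of mural cell RNA in the Mrgprf values was not tested.

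Adhesion receptors carry long extracellular domains that bind matrix or other cells. Of 9 tested, 5 fell and 2 rose from fetal to adult, beside 35.5% and 34.9% of all genes. The latrophilins, which bind teneurins and FLRT proteins on other cells, all fell. Adgrl2 measured 176, 180.2 and 173 CPM at the fetal, 141, 152 and 149.98 at the neonatal and 55.8, 53.6 and 51.5 at the adult age (adult minus fetal -1.72 ± 0.06, adjusted p = 2.65e-08). Adgrl1 went from 86.3, 79.4 and 59.1 CPM in fetal to 37.4, 36.5 and 35.6 in adult libraries (-1.04 ± 0.13, adjusted p = 6.05e-05), and Adgrl3 from 7.83, 7.8 and 3.83 to 1.07, 1.37 and 1.05 (-2.47 ± 0.31, adjusted p = 6.73e-05). For each of the 3, every adult library was below every other.

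Adgrg1 (GPR56), a collagen-binding receptor, was level over the younger ages and dropped in the adult. It measured 32.4, 35.5 and 32.9 CPM across the fetal libraries, 33.7, 35.4 and 37.5 across the neonatal and 1.99, 3.54 and 3.89 across the adult ones, 10.7-fold lower in adult than in fetal cultures (-3.41 ± 0.18, adjusted p = 3e-07). Adgrb2 fell from 3.13, 2.82 and 3.67 CPM in fetal to 1.21, 1.25 and 1.81 and 0.612, 0.578 and 0.225 (adult minus fetal -2.74 ± 0.36, adjusted p = 0.000106). Adgre5 (CD97), found on leukocytes and many other cells, rose from 26.5, 25.7 and 18.6 CPM in fetal to 31.8, 33.5 and 33.4 in neonatal and 67.4, 75.1 and 90.4 in adult libraries (adult minus fetal 1.72 ± 0.15, adjusted p = 5.98e-06). Adgre1 (F4/80), itself a classic macrophage marker, measured 0.27, 0.441 and 1.86 CPM in fetal, 0.826, 0.744 and 0.777 in neonatal and 42.7, 51.1 and 51 in adult cultures (adult minus fetal 5.83 ± 0.43, adjusted p = 2.89e-06; 7.02 without fetal replicate 3). Fetal replicate 3 held most of the fetal Adgre1, as it did of Adgrf5, a receptor of lung epithelium (0.054, 0.132 and 1.38 CPM in fetal and 2.22, 1.01 and 1.2 in adult libraries), and without that library the adult level of Adgrf5 passed as higher than the fetal (adjusted p = 0.000175), which it did not with it (adjusted p = 0.128).

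Most Gpr genes were named as receptors before a ligand was known, and some members of the name group, Gpr107, Gpr108 and Gpr180 among them, are not canonical receptors. Of 63, 30 were tested, and 11 rose and 6 fell from fetal to adult (36.7% and 20% of 30), beside 34.9% and 35.5% of all genes. Gpr65, which senses protons, held 1 count over the fetal libraries and measured 0.22, 0.139 and 0.0647 CPM in neonatal and 5.97, 6.28 and 7.56 in adult libraries, an adult level 396 times the fetal (95% counting interval 70.6 to 15718; adjusted p = 1.39e-06). Gpr34, a receptor for lysophosphatidylserine, measured 0.054, 0.0441 and 0.372 CPM at the fetal, 0.33, 0.279 and 0.518 at the neonatal and 7.73, 11.6 and 12.4 at the adult age (adult minus fetal 6.06 ± 0.53, adjusted p = 6.62e-06; 7.56 without fetal replicate 3). Cask, in whose span Gpr34 lies on the opposite strand, fell over the same ages, by 1.05 on the log2 scale. Gpr183, the oxysterol receptor EBI2, measured 0, 0.176 and 0 CPM, 0.991, 0.79 and 0.647 and 3.06, 3.76 and 7.86 (adult minus fetal 6.07 ± 0.75, adjusted p = 6.51e-05; fetal replicate 2 is the only fetal library with a count, and without it the adult level was at least 60.9-fold the fetal, against a floor of 3 counts). Gpr84, a receptor for medium-chain fatty acids, measured 0.108, 0.0882 and 0.744 CPM, 0.605, 0.465 and 0.388 and 4.21, 6.36 and 10.3 (adult minus fetal 4.48 ± 0.64, adjusted p = 0.000181; 6.05 without fetal replicate 3).

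Gpr18 and Gpr141 had at most 2 counts over the fetal libraries. Gpr18 measured 1.15, 1.52 and 2.7 CPM in the adult, a ratio of 53.7 to fetal (95% counting interval 14.3 to 452; adjusted p = 0.000654), and Gpr141 measured 1.15, 1.95 and 0.899 CPM, at least 26.8-fold higher than in fetal cultures (adjusted p = 0.000815). Gpr132 rose from 0, 0.132 and 0.159 CPM in fetal to 1.38, 1.16 and 2.25 in adult libraries (3.91 ± 0.62, adjusted p = 0.000341). Ubac2, which spans both Gpr18 and Gpr183 on the opposite strand, differed between adult and fetal cultures by only 0.24. All 14 macrophage markers stood above every younger library in each adult one, with Cd163 the only one at 0 in the fetal and neonatal libraries. Of the 21 receptors higher in the adult, 11 had their highest adult value in replicate 3 and 8 in replicate 1. The same count was not made for all genes higher in the adult. Over genes in general, adult replicates 1 and 3 were the least alike adult pair. Their chi-square per degree of freedom was 42.96, against 25.84 for replicates 1 and 2 and 6.763 for 2 and 3. Adult replicate 3 also held the most macrophage marker RNA (6855 CPM, against 4910 in replicate 1 and 5961 in replicate 2) and the highest sum of fibroblast markers (35606 CPM, against 27042 and 33048). Single fibroblast markers were divided. Col1a1, Col3a1, Lum, Thy1, Vim and Postn were lowest in adult replicate 1, while Pdgfra, Dcn, Tcf21, Ddr2 and the scarce Col1a2 were highest there. Pdgfra measured 669, 384 and 245 CPM, Dcn 471, 359 and 229.7 and Tcf21 226, 113 and 108 in adult replicates 1, 2 and 3. Adora2a, Adora2b and Lpar1 were highest in replicate 1 too. The part of such differences between adult libraries in the receptor values was not tested. The part of macrophage RNA in the adult levels of these receptors was not tested.

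Adora2a, Adora2b, Lpar1, Htr2b, P2ry14, P2ry2 and Gpr39 were among the 8 that were highest in adult replicate 1, although the adult values of P2ry2 lay within 70.0 to 78.1 CPM. Gpr39, a zinc-sensing receptor, rose from 6.21, 6.57 and 3.93 CPM in fetal to 12.2, 11.1 and 11.1 in neonatal and 24.8, 16.9 and 13.4 in adult libraries (adult minus fetal 1.72 ± 0.25, adjusted p = 0.000214). Its exons overlap those of Lypd1 on the opposite strand, and because the counting did not use strand, reads from the shared bases were assigned to neither gene. Gpr176, an orphan receptor described in the circadian clock, rose after the fetal age, from 86, 82.8 and 63.1 CPM to 146, 144 and 138 in neonatal and 188, 158 and 132 in adult libraries (neonatal minus fetal 0.88 ± 0.14, adjusted p = 0.00183).

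Among the 6 Gpr genes that fell to the adult, Gpr22 held 148 counts over the fetal and 2 over the adult libraries, a ratio of 49.6 (95% counting interval 13.5 to 414; adjusted p = 0.000908). It is known from heart muscle and brain, and its fetal values were 1.57, 1.37 and 4.68 CPM, with 88 of the 148 counts in replicate 3. Adult minus fetal moved from -5.48 to -4.69 without that library, and without adult replicate 2, which held both adult counts, the fetal level was at least 21.7-fold the adult against a floor of 3 counts. Gpr37, which is known from oligodendrocytes, fell from 3.83, 4.14 and 2.18 CPM in fetal to 1.38, 0.506 and 0.749 in adult libraries (-1.95 ± 0.40, adjusted p = 0.00167). Gpr63 measured 1.73, 2.16 and 3.35 CPM in fetal, 3.3, 2.97 and 3.3 in neonatal and 0.842, 0.722 and 0.449 in adult cultures (adult minus fetal -1.83 ± 0.34, adjusted p = 0.00102). For Gpr37 and Gpr63 every adult library was below every other.

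The receptor calls between neonatal and fetal cultures were those most often ended by another setting. All genes lost calls there too: 4114 with all libraries became 2607, 2476 and 2575 without neonatal replicate 1, 2 and 3. The share of calls over all genes that held under every alternative was not counted. Of the 26 receptor calls, 13 held under every alternative. For adult minus fetal 52 of 56 held, and for adult minus neonatal 44 of 49. Among the 13 neonatal minus fetal calls that held were those of F2rl1, S1pr1, S1pr2, S1pr3, Adrb3, Adra1b, P2ry2, Mrgprf, Gpr176, Gpr39, Gpr146 and Gpr183. The fall of Lpar3 ended without any neonatal library (adjusted p = 0.0537, 0.0530 and 0.0511 without replicate 1, 2 and 3), and so did that of Chrm2 (0.0828, 0.0901 and 0.0989), which also ended without fetal replicate 2 (0.0524). The rise of Adgre5 ended without any neonatal library (0.0678, 0.0892 and 0.0834), with library size alone (0.0745) and with the replicate number as a block (0.0589). The falls of Adgrb2 (0.0787 and 0.0807) and Gpr22 (0.0856 and 0.0896) ended without neonatal replicate 1 or 2, that of Gpr85 without neonatal replicate 2 or 3 (0.0723 and 0.0568), that of Adgrl2 without neonatal replicate 1 (0.0531) and that of P2ry6 without neonatal replicate 3 (0.0550). Gpr19 ended without fetal replicate 1 or 3, any neonatal library or adult replicate 2 (up to 0.143), Htr2a without any fetal or neonatal library or adult replicate 3 (up to 0.125), and Gpr65 without fetal replicate 1 or 2, neonatal replicate 1 or 2 or any adult library (up to 0.138). Gpr19 and Htr2a also ended with no filter (0.0518 and 0.0520) and with the replicate block (0.0637 and 0.0529), and Gpr65 with library size alone (0.0507), the replicate block (0.0785) and DESeq2 (0.0553).

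Among the adult comparisons, the falls of Gpr21, Gpr75 and Htr1f from the fetal level, all below 2 CPM, ended under 7 to 11 alternatives each, with adjusted p of up to 0.0832, 0.141 and 0.103. Between adult and neonatal cultures the call for Gpr39 ended without any neonatal library or adult replicate 1 or 2 (adjusted p up to 0.136), that for Adrb1 without adult replicate 2 (0.0549) and that for Adgrf5 without any neonatal library or adult replicate 1 (up to 0.0633). The receptors P2ry2, Adora2a, Adora2b, F2rl1, F2rl2, Adgrg1, Adgrl2, S1pr1 and Chrm2 lost no call between adult and fetal cultures under any alternative.

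Downstream of the receptors, the same age comparisons were read for 5 lists of signalling genes. Of 24 tested G protein subunits, 9 rose and 8 fell from fetal to adult (37.5% and 33.3%, median 0.40), where 34.9% and 35.5% of all genes did. The Gi subunits parted: Gnai2 rose from 751, 721 and 710.2 CPM in fetal to 1110.4, 1084 and 1114 in adult libraries (0.60 ± 0.06, adjusted p = 2.13e-05), while Gnai1 fell from 17.6, 18.4 and 19.2 to 6.2, 7.37 and 5.24 (-1.55 ± 0.13, adjusted p = 4.74e-06) and Gnao1 from 11.2, 11.3 and 10.6 to 1.3, 1.59 and 1.12 (-3.04 ± 0.17, adjusted p = 3.59e-07). Of 23 genes of the cyclic AMP cascade, 6 rose and 9 fell (26.1% and 39.1%, median -0.10). The adenylyl cyclase Adcy7 rose from 17.8, 18.6 and 25 CPM in fetal to 67.7, 74.4 and 73.7 in adult libraries (1.82 ± 0.12, adjusted p = 1.37e-06), and the regulatory kinase subunit Prkar1a fell from 279, 287 and 276 to 176, 159 and 156 (-0.78 ± 0.06, adjusted p = 4.72e-06).

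Of 18 genes of the phospholipase C and Rock kinase cascades, 6 rose and 7 fell from fetal to adult (33.3% and 38.9%, median -0.046). From fetal to neonatal 10 rose and 0 fell, where 18.3% and 18% of all genes did (median 0.30; also 0 by DESeq2, and 1, Prkca, at an unadjusted p under 0.05 in edgeR). Plcb2, a phospholipase C isoform known from blood cells, measured 0.486, 0.617 and 0.372 CPM in fetal and 46.6, 53.4 and 51.4 in adult libraries (6.64 ± 0.17, adjusted p = 3.46e-09), and Rock1, a kinase that acts on the actin cytoskeleton, fell from 176, 179.8 and 173 in neonatal to 78.4, 75.2 and 76.9 in adult libraries (-1.20 ± 0.07, adjusted p = 1.25e-06). Of 23 kinases, arrestins and RGS proteins, which switch receptors or G proteins off, 12 rose and 5 fell from fetal to adult (52.2% and 21.7%, beside 34.9% and 35.5% of all genes; median 0.45). Arrb2 rose from 2.16, 2.38 and 2.6 CPM to 26.9, 41.1 and 46.2 (3.99 ± 0.23, adjusted p = 4.5e-07), and Rgs9, a regulator known from the striatum and retina, was at or below 0.165 CPM in all fetal and neonatal libraries and at 43.5, 35.4 and 24.7 CPM in the adult.

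Of 26 enzymes and transporters that make, degrade or carry the ligands, 14 rose and 6 fell from fetal to adult (53.8% and 23.1%, beside 34.9% and 35.5% of all genes; median 1.02). Nt5e (CD73), which forms adenosine outside cells, measured 17.2, 18.2 and 16 CPM at the fetal, 77.4, 77.7 and 77.3 at the neonatal and 226, 193 and 189 at the adult age. The ages did not overlap, and adult cultures held 11.8-fold the fetal level (3.56 ± 0.09, adjusted p = 3.46e-09). Ddc, a decarboxylase of catecholamine and serotonin synthesis, measured 26.3, 28.9 and 29.1 CPM in fetal and 8.26, 8.13 and 9.32 in neonatal libraries and had no count in the adult. Dbh, which forms noradrenaline, fell from 3.62, 3.84 and 3.56 CPM in fetal to 1 count over the adult libraries (adjusted p = 3e-06). For all genes tested the median of adult minus fetal was -0.013, and the median of neonatal minus fetal -0.0053.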

How the data were processed

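RNA of cultured cells, in 9 libraries with 3 at each age, was sequenced on an Illumina instrument from TRIzol extracts, per the labels' protocols. The values used are raw read counts per gene, deposited by the authors; per the file headers they were made with featureCounts 1.6.3 on an rn6 annotation with only the annotation and output options set, so by that program's defaults strand was not used and reads mapped to several places were left out. The submitters' processing notes also name FastQC, Trimmomatic 0.39, STAR 2.5.2b and DESeq2, with no role given. Exon lengths and positions (rn6) came from the same deposited table. A deposited table of normalized signal values for 12786 genes equals the authors' counts divided by 1 size factor per library and gave no result here. Library totals ran from 13392825 to 22850491 counts, lowest in the adult, and intervals and bounds cover counting error alone, since the reads carry no molecular identifiers and are not independent molecules.

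Here, edgeR 4.0.16 (R 4.3.3) was fitted to all 9 libraries with age as the only term (filterByExpr, TMM scaling, robust glmQLFit and glmQLFTest). It tested 11337 genes, with p-values adjusted by Benjamini-Hochberg over all of them and a threshold of 0.05. Each standard error is the absolute log2 fold change over the square root of its F statistic. CPM are counts per 1000000 at TMM-scaled library sizes, divided by exon length in kilobases for comparisons between genes. A gene without counts at an age was set against a floor of 3 counts over that age's libraries, and intervals of count ratios are exact binomial ones at 95%. The procedure was tested on simulated counts. No pair of libraries of an age agreed within counting error in a chi-square test over genes, so none was counted as deposited more than once.

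The members, gene lists and tests were chosen with earlier results of these data known. By the rule for named genes, members of at least 1 CPM at some age were ranked within each family by their largest called difference, and the first 3 of a family, 12 of the Gpr and 6 of the adhesion genes were named, with the most abundant uncalled member. From each signalling list the 2 genes with the smallest adjusted p in each direction were eligible. F2r, Adrb1, Adra1b, Adra1d, P2ry1, P2ry2, Gpr176, Gpr107, Gpr108, Lpar1, Lpar6, Adgre5, Adgrl1 and a few others fall outside the rule or were taken to complete a family or for their level, with their values known. As alternatives, DESeq2 1.42.0, its size factors in edgeR, library size alone, no filter or a filter of 1 CPM in 3 libraries, the replicate number as a block, only the 2 ages compared, and each library left out were tried. Sequences are from RefSeq's promoter table (GRCr8), matched by symbol. Some genes are counted in totals but not reported here.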

Additional observations from a re-analysis of the deposited data

How the results depend on the processing

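The counts of receptors called in the 2 comparisons with the adult stayed within 1.5 times their values under every alternative. Between neonatal and fetal cultures the 9 higher receptors became 7 to 14 when 1 library was left out (14 without fetal replicate 3). The 17 lower ones became 8 to 22 (9, 8 and 10 without neonatal replicate 1, 2 and 3). Over all genes 4114 calls became 2476 without neonatal replicate 2 and 4679 without fetal replicate 3. In the same comparison the G protein subunits called came to 3 to 10 (6 with all libraries), the cyclic AMP genes to 5 to 11 (8), and the kinases, arrestins and RGS genes to 0 to 5 (1). The last count was 4 with library size alone, 4 with only the 2 ages in the fit and 4 with DESeq2. Library size alone shifted the median of all genes by -0.17 (neonatal minus fetal) and -0.11 (adult minus fetal). Of 1995 alternative values for the 42 members named by the rule, 1906 kept direction and side of the threshold, 46 no longer passed, 42 newly passed and 1 reversed: Adgre1, neonatal minus fetal, was -0.10 with all libraries, between -0.50 and 1.09 with 1 left out, and 1.09 (adjusted p = 0.0224) without fetal replicate 3. Same-numbered libraries of different ages showed little common variation over all genes. Correlations of their deviations ran from -0.0649 (neonatal and fetal replicate 1) to 0.0521 (neonatal and fetal replicate 2). Whether the numbers mark a shared batch was not tested. With the replicate number as a block, the kinases, arrestins and RGS genes called were 2, and 3713, 7801 and 6985 of all genes were called against 4114, 7987 and 7197 without it (neonatal minus fetal, adult minus fetal, adult minus neonatal); no other count of receptors or list genes moved by over 1.5 times. The causes were not tested. The adult libraries are the shallowest, so low receptors are least certain there.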
